A study of Mus musculus with 38 samples.

Results

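Dermal P2 cells are compared here with dermal P1 cells, both sorted monocyte populations of inflamed mouse skin that were taken 3 days after the skin was painted with 2,4-dinitrofluorobenzene (DNFB), a hapten that causes contact hypersensitivity. The arrays were chosen by their titles, which gave 3 arrays of P2 and 2 of P1, together 5 of the 38 arrays of the series. All came from female wild-type C57BL/6 mice aged 6 weeks. The treatment was 10 µl of 0.5% DNFB in acetone and olive oil. P2 cells were sorted as CD11b+ CD24- CD64+ Ly6C high CCR2+ MHC II+, and P1 cells as CD11b+ CD24- CD64 low Ly6C high CCR2+ MHC II-. The same populations of untreated skin (steady state), with 3 arrays each, serve to show where the difference between P2 and P1 depends on treatment. Each array held RNA of 5000 to 10000 sorted cells from a pool of mice, and the RNA was amplified before hybridisation to Affymetrix Gene 1.0 ST chips.

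Ly6C high monocytes leave the blood through the chemokine receptor CCR2 and enter skin, where they can take up MHC class II and turn into cells with features of dendritic cells or of macrophages. MHC class II molecules display peptides to CD4 T cells and depend on the transactivator CIITA. P1 cells, which lack MHC II at the surface, still resemble blood monocytes, and P2 cells are the next stage that sorting separates, at which MHC II and CD64, the high-affinity receptor for IgG, are both present.

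All values are log2 intensities as deposited, and a difference is P2 minus P1 on that scale with its standard error (SE). A gene rose or fell in P2 if its p from limma, fitted on all 38 arrays and adjusted by Benjamini-Hochberg over 19937 genes, was under 0.05. No detection calls exist, so a level under 4.02, the 40th percentile of all values, is treated as low signal, and a fold against it has no exact size. Correlation between replicates was 0.969 for the P1 arrays and 0.950 to 0.972 for the P2 arrays, and the labels do not say which array was in which of the 3 chip batches. The number of arrays limits the precision of every value. In sorted bulk samples, fewer cells of a type and less RNA per cell cannot be told apart.

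The called genes with more RNA in P2 than in P1 cells included 4 of 10 MHC class II genes, 6 of 32 lectin receptors and 7 of 24 tissue-resident macrophage genes. Those with less RNA included 5 of 20 monocyte genes and 5 of 21 granule and alarmin genes. The lists overlap: Mmp8, Hp and Pglyrp1 are counted in both lists of falls, and Cd209d in both the lectin and the tissue-resident macrophage list. In total 122 of 19937 genes passed (0.612%), of which 57 rose (0.286%) and 65 fell (0.326%), and 52 of the rises and 55 of the falls were at least 2-fold. In all 122 the arrays of the groups did not overlap, as was the case for 21.9% of all genes (10.8% higher and 11.1% lower in P2). The median difference over all genes was 0.01. An unadjusted p under 0.05 was found for 1540 genes.

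The count rests on few arrays. It was 45 without replicate 1 of P1, 72 without replicate 2 of P2 and 198 without replicate 1 of P2, and 28 genes (17 rises and 11 falls) passed whichever of the 5 arrays was left out. With the spread estimated from the 5 arrays alone 22 genes passed, 21 of them among the 122. These 21 were the rises Mgl2, Cd209d, P2ry10, Klrd1, H2-Eb1, Cd7, C1qa, Zfp667, Pgf, H2-Ab1, St6gal1, H2-Aa and Pltp, and the falls Ly6a2, Plcb1, Itgal, Smpdl3b, Zfyve9, Bin2, Gstm1 and Kcnj2. The rest of the 122 did not pass by limma on the 5 arrays. Among them were Mmp8 (adjusted p = 0.25), Retnla (0.27), Cd163 (0.21), Fcrls (0.13) and Hp (0.12), so their calls rest on the spread of all groups.

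**Figure D1:**
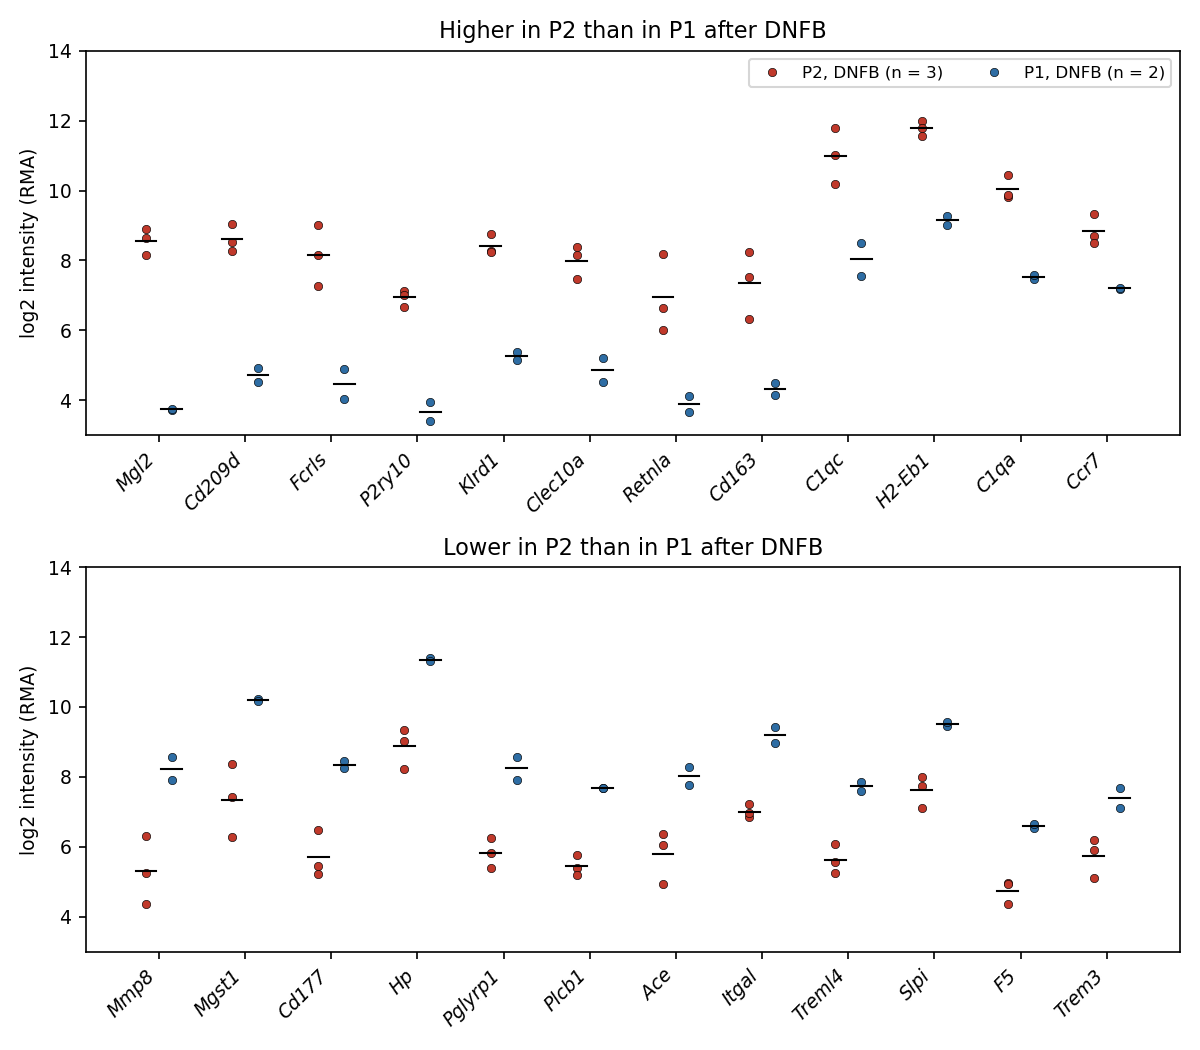
Log2 intensity of 12 genes that were higher (top) and 12 that were lower (bottom) in P2 than in P1 after DNFB. Points are arrays (3 of P2 in red, 2 of P1 in blue) and bars are group means. The points of the groups do not overlap for any of the genes shown, as for all 122 called genes.

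Genes of MHC class II were higher in P2, but the sort gates chose the cells by this protein: P2 was gated MHC II+ and P1 MHC II-, so their direction is not independent evidence. H2-Eb1, which encodes a class II beta chain, had log2 intensities of 11.99, 11.57 and 11.80 on the P2 arrays and 9.28 and 9.01 on the P1 arrays. The P1 level was far above low signal, so P1 cells were not without this RNA. The difference was 2.64 (SE 0.15, adjusted p = 8.5e-13), 6.24-fold. H2-Ab1, the other classical beta chain, stood at 12.10, 11.92 and 12.10 in P2 and at 9.85 and 10.04 in P1 (difference 2.09, SE 0.17, adjusted p = 2.8e-09). H2-Aa, the alpha chain that pairs with it, was at 12.16, 11.99 and 12.14 in P2 and at 10.35 and 9.96 in P1 (difference 1.94, SE 0.15). For both genes the P2 arrays lay close together and well above the P1 arrays. Cd74, the invariant chain that guides class II molecules to endosomes, differed by less, 1.06 (SE 0.12, adjusted p = 2.4e-06), with 12.49 to 12.55 in P2 and 11.66 and 11.26 in P1.

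These 4 were the rises among 10 measured MHC class II presentation genes, none fell, and the list median was 1.07 against 0.01 over all genes. H2-Ob, H2-Oa and H2-DMa, which encode chains of the class II peptide-editing molecules, were higher on every P2 array without passing (differences 0.98, 1.09 and 0.64). Ciita was at 7.33, 5.95 and 6.67 in P2 and 6.00 and 5.14 in P1, so its arrays overlapped (difference 1.08, adjusted p = 0.13). Ctss, the protease that trims the invariant chain, was between 11.65 and 11.82 in P2 and at 11.96 and 11.82 in P1 (difference -0.13, adjusted p = 0.93).

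Class II promoters carry a conserved array of short boxes on which the CIITA enhanceosome forms. The start regions of 4 class II genes are shown because they let the boxes be compared between genes with a called difference (H2-Eb1 and H2-Aa) and genes without one (H2-Ob and H2-Oa). Capitals mark GCAAC, a core of the X box, and GATTGG, a Y box that holds the reverse of CCAAT. Sequences are RefSeq promoter windows of GRCm38.p6, on the strand of the gene.
H2-Eb1, chr17:34305766-34305822, plus strand: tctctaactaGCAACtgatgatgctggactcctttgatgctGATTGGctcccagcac
H2-Aa, chr17:34287857-34287914, minus strand: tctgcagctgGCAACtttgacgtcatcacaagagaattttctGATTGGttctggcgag
H2-Ob, chr17:34238808-34238862, plus strand: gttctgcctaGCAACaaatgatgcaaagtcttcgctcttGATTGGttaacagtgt
H2-Oa, chr17:34092293-34092350, plus strand: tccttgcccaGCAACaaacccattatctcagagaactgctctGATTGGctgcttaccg
The boxes lay 26, 27, 24 and 27 bases apart in this order, and GCAAC began 91, 81, 87 and 76 bases before the annotated start. The pattern was set after these sequences were seen. Of 32851 windows of 300 bases, searched on both strands, 35.2% held GCAAC and 16.1% held GATTGG, and 67 (0.204%) held GCAAC followed by GATTGG at a distance of 20 to 30 bases. Windows were found for 7 of the 10 class II list genes, and 5 of these 7 held the pair. A match describes these letters only, and it was present in genes that passed and in genes that did not.

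The lectin receptors held the largest rises. Mgl2 encodes CD301b, a receptor for galactose-type sugars, and had 8.90, 8.14 and 8.64 on the P2 arrays and 3.72 and 3.75 on the P1 arrays. P1 was at low signal, so the difference of 4.82 (SE 0.39, adjusted p = 3.2e-09), or 28.3-fold, has no exact size. Cd209d, one of the mouse relatives of DC-SIGN, stood at 8.26, 9.04 and 8.51 in P2 and at 4.51 and 4.92 in P1 (difference 3.89, SE 0.57, 14.9-fold, adjusted p = 0.00018). Clec10a, which encodes CD301a, the close relative of Mgl2, was at 8.14, 7.45 and 8.37 in P2 and at 4.51 and 5.21 in P1 (difference 3.13, SE 0.45). On all 3 P2 arrays these genes lay at least 2 log2 units above both P1 arrays. Cd209a, another DC-SIGN relative, had a higher base in P1 (8.04 and 7.21) and reached 10.16, 8.93 and 9.47 in P2 (difference 1.90, SE 0.33). Its call ended without replicate 2 of P1 (1.49, adjusted p = 0.11). Klrb1b, an inhibitory lectin-like receptor, rose by 2.58 (SE 0.36) and Clec4b1 by 1.69 (SE 0.38), the second a call that ended without replicate 1 of P1 (adjusted p = 0.57), among others. Of 32 lectin receptor genes 6 rose, none fell and the median was 0.42. Mrc1, the mannose receptor, was evenly high in P2 (10.97, 10.96 and 10.98) against 10.09 and 9.37 in P1, and its difference of 1.24 did not pass (adjusted p = 0.13). Klra2 and the CD300 genes Cd300lb and Cd300lf had values below 0 (-1.46, -1.29 and -1.05), and none of the 3 passed.

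Genes of alternative activation, the programme that interleukin-4 starts in macrophages, split. Retnla, an interleukin-4 induced secreted protein, was at 6.02, 6.65 and 8.19 in P2 and at 4.13 and 3.67 in P1, where it was at low signal (difference 3.06, SE 0.51, adjusted p = 0.0011). The P2 arrays differed among themselves by over 2 log2 units, yet none came near P1. Irf4, a transcription factor that this programme and one branch of dendritic cells use, rose by 1.43 (SE 0.32, adjusted p = 0.026) with 6.22, 5.61 and 6.19 in P2 and 4.16 and 4.98 in P1. The call of Irf4 ended without replicate 1 of P1 (1.02, adjusted p = 0.72), without replicate 1 of P2 (0.07) and without replicate 3 of P2 (0.1). Arg1, which encodes arginase 1 and is a classical member of the same programme, went the other way with 5.07, 5.53 and 4.97 in P2 and 5.94 and 6.69 in P1 (-1.13, SE 0.23, adjusted p = 0.0091), a call that ended without replicate 2 of P1 (-0.75, adjusted p = 0.35) or replicate 3 of P2 (0.058). With Mgl2 and Clec10a, 4 of 18 genes rose and 1 fell, and the median was 0.11. Il4ra, the receptor subunit for interleukin-4, was between 9.34 and 9.63 on all 5 arrays (difference 0.09).

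Tissue-resident macrophage genes were higher in P2 as a group. Of 24 measured 7 rose and none fell. On every P2 array 20 were higher than on either P1 array, as were 10.8% of all genes. The median was 1.54. Fcrls, a scavenger receptor-like protein, had 7.27, 9.02 and 8.17 in P2 and 4.03 and 4.90 in P1 (difference 3.69, SE 0.46, 12.9-fold). Cd163, the receptor that clears haemoglobin bound to haptoglobin, had 6.32, 8.23 and 7.51 in P2 and 4.51 and 4.16 in P1 (difference 3.02, SE 0.38, 8.13-fold). C1qc and C1qa encode chains of C1q, the first component of the classical complement pathway. C1qc stood at 10.18, 11.78 and 11.03 in P2 and at 7.57 and 8.50 in P1 (difference 2.96, SE 0.47), and its call ended without replicate 1 of P1 (2.50, adjusted p = 0.089). C1qa stood at 9.82, 10.45 and 9.88 in P2 and at 7.47 and 7.58 in P1 (difference 2.52, SE 0.42, adjusted p = 0.0012). The third chain gene, C1qb, was at 10.37, 10.80 and 10.42 in P2 and at 8.59 on both P1 arrays without passing (difference 1.94, adjusted p = 0.076). Ms4a7 (2.55, SE 0.50) and Cbr2, a carbonyl reductase (2.83, SE 0.60), completed the 7 with Cd209d. Both calls ended without replicate 1 of P1 (adjusted p = 0.16 and 0.28), without replicate 2 of P1 (0.053 and 0.087) and without replicate 2 of P2 (0.077 and 0.14).

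Replicate 2 of P2 was the highest of its group in this set. The list mean was 7.56, 8.93 and 8.09 on the P2 arrays and 6.34 and 6.59 on the P1 arrays, and the order of the P2 arrays repeated in single genes. Ccl8, a chemokine of skin macrophages, was at 6.58, 11.37 and 9.16 in P2 and at 4.20 and 6.28 in P1, so a mean difference of 3.80 did not pass (adjusted p = 0.34). Folr2 and Lyve1, surface genes of perivascular macrophages, had 5.36, 7.88 and 6.05 and 4.45, 6.76 and 4.79 in P2, against 4.30 and 4.32 and 4.05 and 4.34 in P1. On replicates 1 and 3 of P2, Lyve1 was thus close to P1. The share of resident macrophages in each sort was not tested. The macrophage core list, genes shared by macrophages of many tissues, gave 0 rises and 0 falls among 31. Over all genes 0.612% were called, so a list of this size would hold few or none. In this list 6 genes were higher and 9 lower on every P2 array (48.4%, against 21.9% of all genes). Its median was -0.05, and Mertk, a receptor for dying cells, was at 4.95, 7.02 and 6.30 in P2 and at 5.00 and 4.31 in P1.

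**Figure D2:**
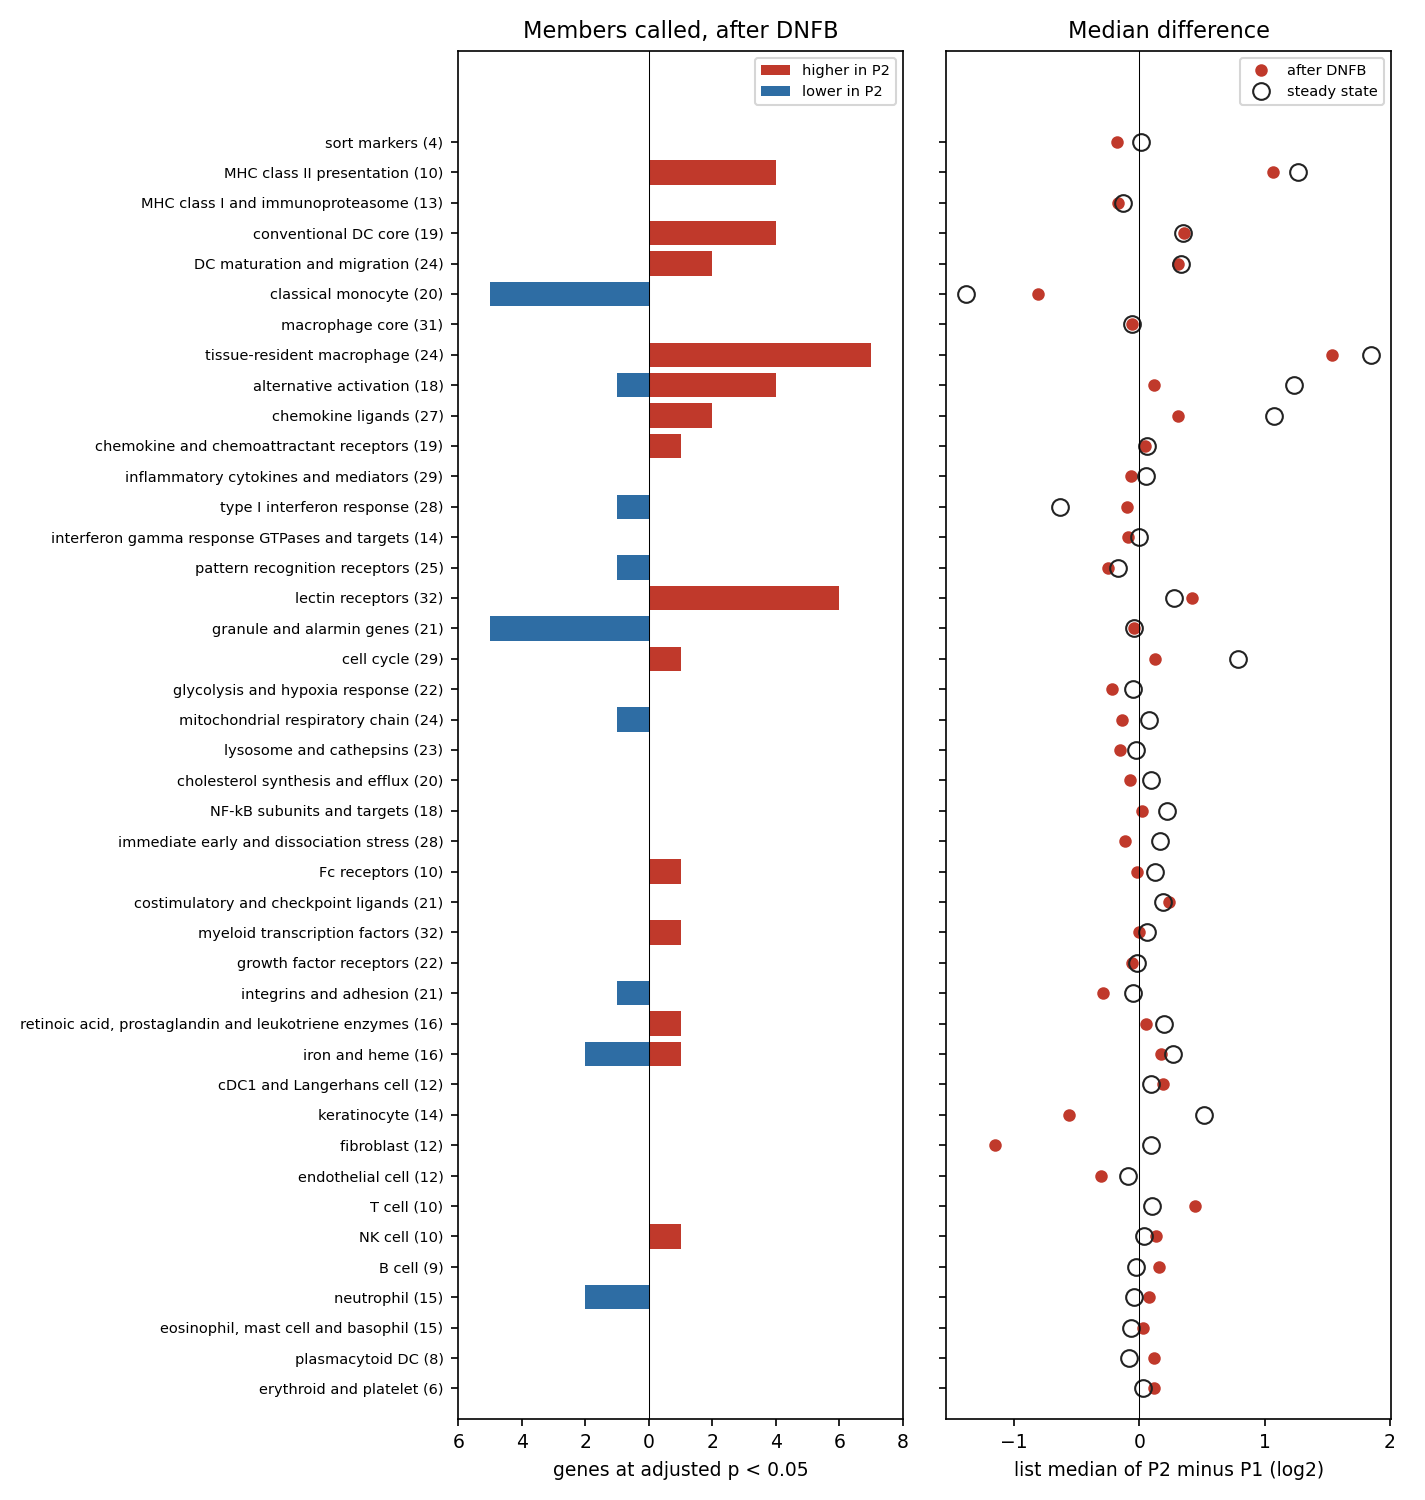
Counts of list members called higher (red) or lower (blue) in P2 after DNFB (left), and median P2 minus P1 difference of each list after DNFB (red points) and at steady state (open circles) (right), with the number of measured members beside each name. The tissue-resident macrophage list has 7 rises and the classical monocyte and granule lists have 5 falls each.

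Genes of dendritic cells and of their migration were raised in part. Ccr7, the receptor that leads cells into lymph vessels, had 9.32, 8.69 and 8.49 in P2 and 7.17 and 7.22 in P1 (difference 1.64, SE 0.30, adjusted p = 0.0035). Its call ended without replicate 1 of P1 (1.61, adjusted p = 0.092). Ccl22, a ligand of CCR4 on T cells, was at 6.17, 7.04 and 5.87 in P2 and at 4.26 and 5.01 in P1 (difference 1.72, SE 0.39, adjusted p = 0.03), a call that ended without replicate 1 of P1 (1.35, adjusted p = 0.63) or replicate 2 of P2 (1.38, adjusted p = 0.23). These 2 were the rises among 24 genes of dendritic cell maturation and migration (median 0.31), with no fall. The conventional DC core list gave 4 rises (Cd209a, Ccr7, Klrk1 and Irf4) and no fall among 19, and its median was 0.35. Zbtb46, the transcription factor that defines conventional dendritic cells, was at 5.62, 4.84 and 5.16 in P2 and at 5.19 and 5.15 in P1. Flt3, the growth factor receptor of that lineage, was at 7.57, 5.85 and 6.88 in P2 and at 5.98 and 6.14 in P1, so neither separated the groups. Costimulatory and checkpoint ligands gave 0 calls of 21 (median 0.24). With 0.612% of all genes called, a list this short would hold few or none. In it 8 genes were higher and 4 lower on every P2 array (57.1%, against 21.9% of all genes). Tnfsf4, which encodes OX40 ligand, was at 5.53, 4.34 and 5.82 in P2 and at 3.35 and 3.39 in P1, where it was at low signal (difference 1.86, adjusted p = 0.07). Cd86 differed by 0.43, Cd83 by 0.11 and Cd274, the gene of PD-L1, by 0.02.

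Klrd1 and Klrk1, receptors best known from natural killer cells, rose in P2. Klrd1, the gene of CD94, had 8.28, 8.25 and 8.75 in P2 and 5.39 and 5.15 in P1 (difference 3.16, SE 0.44, 8.91-fold, adjusted p = 0.00012). Klrk1, the gene of NKG2D, had 7.19, 7.04 and 7.87 in P2 and 5.92 and 5.82 in P1 (difference 1.50, SE 0.31), and its call ended without replicate 1 of P1 (adjusted p = 0.15), replicate 2 of P1 (0.11) or replicate 3 of P2 (0.089). The P2 arrays were above the P1 arrays in both genes. Among 10 NK cell markers Klrd1 was the 1 rise. The defining genes Ncr1 (3.21 to 3.42 in P2, 3.25 and 3.28 in P1) and Klrb1c (2.64 to 2.78 in P2, 2.61 and 2.74 in P1) were at low signal on every array, as was Gzma. The NK list mean was 4.26 to 4.49 in P2 and 3.84 and 3.90 in P1. The differences of the 10 had a median of 0.13, and the smallest was 0.02, so no member had a lower mean in P2. Of the 10, 3 were higher on every P2 array, as were 10.8% of all genes. The share of NK cells in each sort was not tested.

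Among genes outside these lists, P2ry10, a receptor for lysophosphatidylserine, was at 7.14, 6.66 and 7.02 in P2 and at 3.41 and 3.94 in P1, where it was at low signal (difference 3.27, SE 0.42, adjusted p = 2.6e-05). Npl, an enzyme of sialic acid breakdown, was at 5.92, 8.81 and 6.61 in P2 and at 4.27 and 4.26 in P1, again with replicate 2 of P2 highest (difference 2.85, SE 0.57). Its call ended without replicate 1 of P1 (adjusted p = 0.16), replicate 2 of P1 (0.083) or replicate 2 of P2 (0.083). Cd7 rose by 2.61 (SE 0.56), a call that ended without replicate 1 of P1 (adjusted p = 0.12), replicate 2 of P1 (0.19) or replicate 2 of P2 (0.062). Cd72, an inhibitory receptor of B cells that myeloid cells also carry, rose by 2.57 (SE 0.46), a call that ended without replicate 1 of P1 (adjusted p = 0.23). Of 27 chemokine ligand genes, Ccl22 and Cxcl16, the ligand of CXCR6, rose, none fell and the median was 0.31. Cxcl16 was at 9.88, 10.34 and 10.46 in P2 and at 8.65 and 8.84 in P1 (difference 1.48, SE 0.31), and its call ended without any 1 array other than replicate 1 of P2 (adjusted p = 0.063 to 0.26). Mki67 was the 1 rise among 29 cell cycle genes (1.33, SE 0.28, median of the list 0.13), and its call ended without replicate 1 of P1 (adjusted p = 0.43) and without replicate 2 or 3 of P2 (0.064 and 0.08).

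The largest fall was Mmp8, and genes known from blood monocytes and neutrophils made up many of the falls named here. Mmp8, the neutrophil collagenase, had 5.24, 4.37 and 6.30 in P2 and 8.56 and 7.92 in P1 (-2.94, SE 0.35, adjusted p = 8.1e-06), 7.66-fold lower. Hp, which encodes haptoglobin, had 9.34, 8.23 and 9.03 in P2 and 11.40 and 11.30 in P1 (-2.49, SE 0.35, adjusted p = 0.00011). Hp thus remained strongly expressed in P2. Pglyrp1, a peptidoglycan-binding protein of granules, was at 5.82, 6.24 and 5.39 in P2 and at 7.92 and 8.56 in P1 (-2.42, SE 0.49), and its call ended without replicate 1 of P1 (adjusted p = 0.065), replicate 2 of P1 (0.18) or replicate 3 of P2 (0.063). Treml4, a receptor of the TREM family, was at 5.56, 5.24 and 6.09 in P2 and at 7.61 and 7.85 in P1 (-2.10, SE 0.37), and Ace, the angiotensin-converting enzyme, at 6.06, 4.93 and 6.36 in P2 and at 7.77 and 8.28 in P1 (-2.24, SE 0.38). Both calls ended without replicate 2 of P1 (adjusted p = 0.051 and 0.053).

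With these 5 genes, 5 of 20 genes of the list named classical monocyte fell and none rose. That list also holds genes known from non-classical, Ly6C low monocytes, among them Treml4, Ace and Cx3cr1. Of the 20, 16 were lower on every P2 array, as were 11.1% of all genes, and the median was -0.81. The list mean was 9.06, 8.86 and 9.32 on the P2 arrays and 10.22 and 10.25 on the P1 arrays. Chil3, a chitinase-like protein, was 1.70 lower (9.38 to 9.68 in P2, 11.47 and 10.94 in P1) and Ifitm6 1.54 lower (9.44 to 10.22 in P2, 11.40 and 11.46 in P1), yet neither passed (adjusted p = 0.29 and 0.41). Fn1, which encodes fibronectin, and Cx3cr1, the fractalkine receptor, had differences of -1.24 and -1.07 that did not pass. S100a4, a calcium-binding protein of motile cells, was at 12.28 to 12.47 in P2 and at 12.38 and 12.41 in P1.

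Granule and alarmin genes gave 5 falls of 21 and no rise, with a median of -0.04. Besides Mmp8, Hp and Pglyrp1 these were Slpi, a protease inhibitor (7.11, 7.73 and 7.99 in P2, 9.45 and 9.56 in P1), and Lcn2, an iron-siderophore binding protein (3.89, 3.63 and 4.00 in P2, at low signal, and 5.09 and 5.54 in P1). Slpi fell by 1.89 (SE 0.34) and Lcn2 fell by 1.47 (SE 0.31). Both calls ended without replicate 1 of P1 (adjusted p = 0.061 and 0.077) or replicate 2 of P1 (0.051 and 0.24), and that of Lcn2 also without replicate 2 of P2 (0.091). S100a8, an alarmin of neutrophils and monocytes, was 7.0, 10.01 and 8.76 in P2 and was 6.08 and 9.53 in P1, so the spread within the groups exceeded the difference (0.79), which was -0.94 without replicate 1 of P1. Of 15 neutrophil markers 2 fell (Mmp8 and Lcn2), and Ly6g (2.70 to 2.94 in P2, 3.38 and 2.67 in P1) and Ngp were at low signal on all 5 arrays.

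Other large falls were spread over unrelated functions. Cd177, a glycoprotein of neutrophils, was at 6.48, 5.23 and 5.45 in P2 and at 8.45 and 8.26 in P1 (-2.63, SE 0.26, adjusted p = 2e-07). Ly6a2 was at 6.32, 7.09 and 6.33 in P2 and at 9.22 and 9.39 in P1 (-2.72, SE 0.30). Plcb1, a phospholipase C that acts below G protein-coupled receptors, was at 5.38, 5.19 and 5.75 in P2 and at 7.68 and 7.69 in P1 (-2.25, SE 0.18, adjusted p = 3.2e-09). In these 3 genes every P2 array lay below both P1 arrays, as in all 65 called falls. Itgal, the alpha chain of the integrin LFA-1, was at 7.22, 6.84 and 6.95 in P2 and at 9.43 and 8.97 in P1 (-2.20, SE 0.29, 4.6-fold lower), the 1 call among 21 integrin and adhesion genes. Its partner Itgb2 did not pass (-0.58, adjusted p = 0.61). Mgst1, a membrane-bound glutathione transferase, fell by 2.85 (SE 0.57), Stfa3, a cysteine protease inhibitor, by 2.75 (SE 0.62), Arhgef37 by 2.12 (SE 0.31), Serpinb10 by 2.11 (SE 0.50) and Smpdl3b by 1.97 (SE 0.43). None of these 5 calls held without replicate 1 of P1 (adjusted p = 0.17, 0.53, 0.082, 0.31 and 0.32), and those of Mgst1, Stfa3, Serpinb10 and Smpdl3b ended without other arrays too. Trem3, an activating receptor, fell by 1.67 (SE 0.25), the 1 call among 25 pattern recognition receptors, with an adjusted p of 0.051 without replicate 1 of P1.

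Calls were few in lists of acute inflammation and interferon signalling. With 0.612% called over all genes, lists of this size would hold few or none, so these counts are no result about the lists. Inflammatory cytokines and mediators gave 0 of 29 (median -0.07). Il1b was at 11.67, 11.11 and 11.70 in P2 and at 11.85 and 11.77 in P1, and Tnf at 10.05 to 10.98 in P2 and 10.05 and 10.53 in P1, so both populations held much of either RNA. Il6 was at 6.17, 6.27 and 7.71 in P2 and at 8.24 and 8.02 in P1 (-1.41, adjusted p = 0.36). Il10, which restrains inflammation, was at 9.75, 11.46 and 11.11 in P2 and at 9.23 and 9.94 in P1 (1.19, adjusted p = 0.22). Type I interferon response genes gave 1 fall of 28, Oas3 (-1.47, SE 0.32), a call that ended without replicate 1 of P1 (adjusted p = 0.49) or replicate 2 of P2 (0.13), with a list median of -0.10. NF-kB subunits and targets gave 0 calls of 18, interferon gamma targets 0 of 14, and growth factor receptors 0 of 22. No call was made among 13 MHC class I, 22 glycolysis, 23 lysosome, 20 cholesterol and 28 immediate early genes. The Fc receptor, chemoattractant receptor, transcription factor and prostaglandin enzyme lists each held 1 rise (Fcrls of 10, Ccr7 of 19, Irf4 of 32 and Hpgds, the prostaglandin D synthase of immune cells, of 16), and the respiratory chain list 1 fall (Atp5c1 of 24). The call of Atp5c1 (-0.42) ended without any 1 of the 5 arrays (adjusted p = 0.06 to 0.29). That of Hpgds (2.31) ended without replicate 1 or 2 of P1 (0.41 and 0.083) or replicate 2 or 3 of P2 (0.22 and 0.056). Of 16 iron and heme genes Cd163 rose, and Hp and Lcn2 fell. The sort markers Ccr2, Itgam (CD11b), Fcgr1 (CD64) and Cd24a differed by -0.06, -0.30, -0.37 and 0.03, and none passed. For Fcgr1 this was so although P2 was gated CD64+ and P1 CD64 low. No value is given for the genes of Ly6C, whose probe sets each carry more than 1 symbol.

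Markers of fibroblasts and endothelial cells leaned lower in P2, with no call, whereas the keratinocyte list did not separate the groups. The fibroblast list mean was 7.32, 6.80 and 7.24 on the P2 arrays and 8.34 and 8.06 on the P1 arrays. In this list 10 of 12 members were lower on every P2 array, as were 11.1% of all genes. None of the 12 passed, and the median was -1.15. The matrix protease Mmp2 was at 7.89, 6.63 and 6.85 in P2 and at 9.24 and 8.95 in P1. The keratinocyte list mean was 7.15, 5.86 and 5.58 in P2 and 7.05 and 6.53 in P1, so replicate 1 of P2 was the highest of all 5 arrays. Of 12 endothelial genes 8 were lower on every P2 array, again beside 11.1% of all genes (list mean 4.42 to 4.60 in P2, 4.82 and 4.93 in P1). T cell markers gave 0 calls of 10 (list mean 4.78 to 5.07 in P2, 4.67 and 4.76 in P1), and B cell markers 0 of 9. Of the T cell markers 4 were higher and 1 lower on every P2 array (50%, against 21.9% of all genes), with a median of 0.445. Lists of eosinophils, mast cells and basophils (15), plasmacytoid DCs (8), erythroid cells and platelets (6), and cDC1 and Langerhans cells (12) held no call either. Since 0.612% of all genes were called, marker lists this short would hold few or no calls, and the absence of calls does not show that these cells were absent. With the mean levels of the keratinocyte and fibroblast lists added to the model, 97 genes passed, 70 of them among the 122, and 57.7% rose, against 46.7% without them. The differences of Mgl2 (5.21), H2-Eb1 (2.66), Cd163 (2.87), Itgal (-2.13) and Hp (-2.42) then all passed at nearly the same size, whereas those of Ms4a7 (2.16), Ccl22 (1.65), Klrk1 (1.21), Irf4 (1.15), Cxcl16 (1.25), Clec4b1 (1.35), Oas3 (-1.26), Hpgds (2.41), Atp5c1 (-0.42), Stfa3 (-2.18), Serpinb10 (-2.30) and Smpdl3b (-1.71) did not pass (adjusted p = 0.057 to 0.19). Other called genes named above or below that did not pass then were Pgd, Flt1, Zfyve9, F10, Fn3krp, Gstm1 and Bin2 (adjusted p = 0.055 to 0.18).

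**Figure D3:**
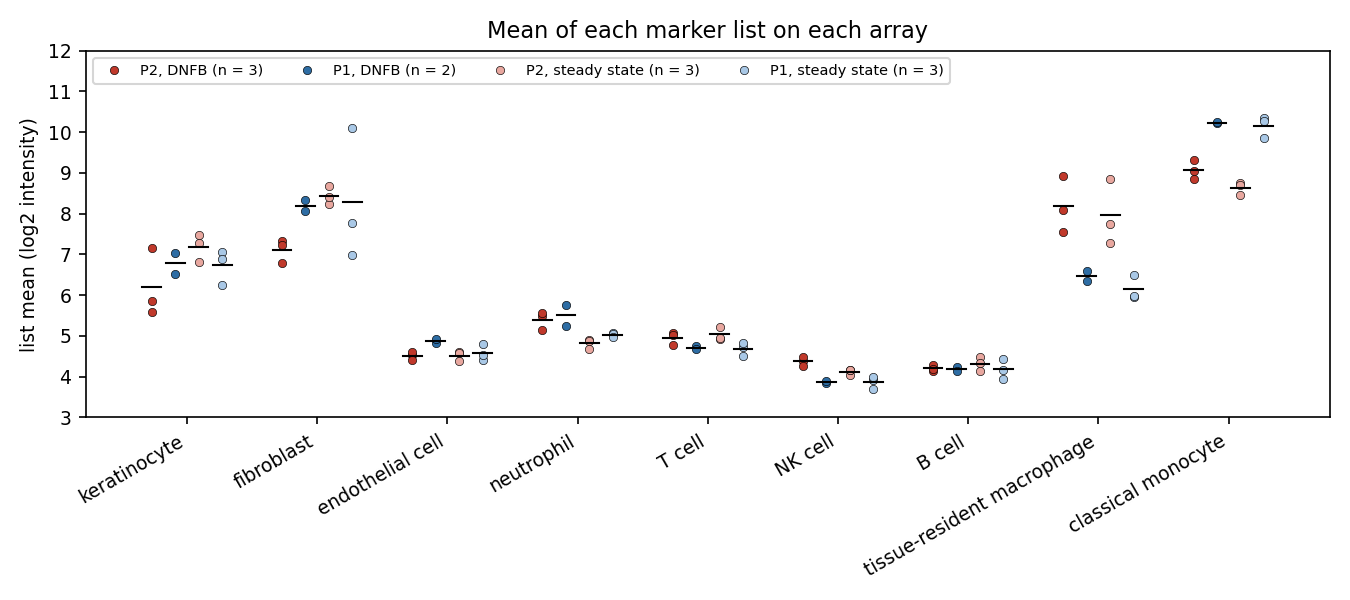
Mean log2 intensity of 9 marker lists on each array of P2 and P1 after DNFB and at steady state. Bars are group means. After DNFB the fibroblast list is lower on all 3 P2 arrays (6.80 to 7.32) than on the 2 P1 arrays (8.06 and 8.34), and 1 steady-state P1 array stands apart at 10.10.

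Set against untreated skin, the difference between P2 and P1 ran the same way for most of these genes. At steady state 416 genes passed (2.09%), 268 of them rising (1.34%) and 148 falling (0.742%). These contrasts use other arrays than the DNFB contrast, but all arrays share 1 estimate of the spread, so the calls are not independent. Of the 57 rises after DNFB, 39 also rose at steady state (68.4% of the 57, 14.6% of the 268), none fell, and 18 did not pass. Of the 65 falls after DNFB, 36 also fell (55.4% of the 65, 24.3% of the 148), none rose, and 29 did not pass. The median of the 57 rises was 1.75 after DNFB and 1.63 at steady state, and that of the 65 falls -1.49 after DNFB and -1.03 at steady state. Without 1 P1 array, steady state gave 309 to 489 calls.

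Of the 4 called MHC class II genes, H2-Ab1 (2.09 after DNFB, 2.02 at steady state), H2-Aa (1.94 and 2.02) and Cd74 (1.06 and 1.12) had differences close in size in both conditions. That of H2-Eb1 was 2.64 after DNFB and 3.40 at steady state, a change of -0.76 (SE 0.19, adjusted p = 0.25). The difference of C1qc was 2.96 after DNFB and 2.74 at steady state, and that of C1qa 2.52 and 3.27. Klrd1 (3.16 and 2.96) and Ccr7 (1.64 and 1.78) are given in the same order. For none of these 8 did the test of the change pass. Pgf, the growth factor that binds VEGF receptor 1, had 7.61, 7.33 and 7.73 in P2 and 5.39 and 5.19 in P1 after DNFB (difference 2.27), against a difference of 0.78 at steady state, and here too the change of 1.48 did not pass (adjusted p = 0.42).

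**Figure D4:**
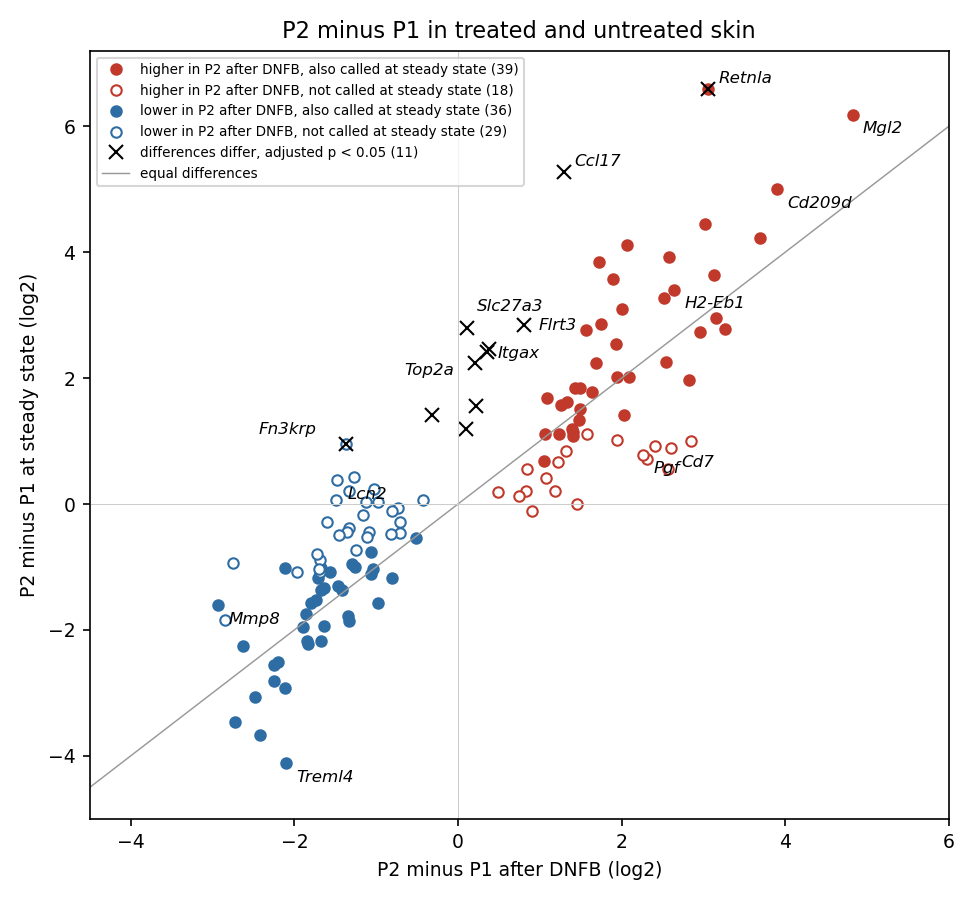
P2 minus P1 difference (log2) after DNFB (horizontal) and at steady state (vertical) for the 122 genes called after DNFB, filled where the same direction was also called at steady state (39 rises and 36 falls). Crosses mark the 11 genes whose difference changed between the conditions, which all lie above the line of equal differences.

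The test of whether the P2 minus P1 difference itself changed with DNFB (the interaction of population and treatment) passed for 11 genes (0.0552%), and in all 11 the difference was lower after DNFB, while 1262 genes, 751 of them lower, had an unadjusted p under 0.05. Ccl17, a ligand of CCR4 that attracts T cells, changed most. After DNFB it was at 6.19, 5.87 and 6.29 in P2 and at 4.93 and 4.73 in P1. At steady state it was at 10.58, 10.91 and 9.81 in P2 and at 4.60, 5.93 and 4.94 in P1. The difference was thus 1.29 after DNFB and 5.28 at steady state, a change of -3.98 (SE 0.46, adjusted p = 3.2e-05), and the P2 arrays of the conditions lay far apart while the P1 arrays overlapped.

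Retnla behaved alike but less evenly, with a difference of 3.06 after DNFB and 6.59 at steady state, where P2 stood at 11.01, 10.67 and 10.23 and P1 at 3.36, 3.65 and 5.10 (change -3.54, SE 0.68, adjusted p = 0.033). Its call ended in 7 of the 11 fits that left out 1 array. Itgax, the gene of CD11c, was at 6.26, 5.78 and 6.29 in P2 and at 5.92 and 5.60 in P1 after DNFB, and at 7.91, 7.79 and 7.39 in P2 and at 5.28, 5.48 and 5.07 in P1 at steady state (change -2.07, SE 0.30, adjusted p = 0.0014). Its difference was 0.35 after DNFB, which did not pass, and 2.42 at steady state, which did. Slc27a3, a fatty acid transport protein gene, was near 4.0 to 4.5 in all groups but steady-state P2, where it was at 6.95, 6.55 and 7.03 (change -2.70, SE 0.40, adjusted p = 0.0014). Top2a, the topoisomerase of dividing cells, was at 4.81 to 5.06 in P2 and at 4.71 and 4.73 in P1 after DNFB, and at 6.01 to 6.72 in P2 and at 3.79 to 4.33 in P1 at steady state (change -2.04, SE 0.37, adjusted p = 0.026). Its call ended in 5 of the 11 fits that left out 1 array.

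The cell cycle list as a whole had 9 rises in P2 at steady state and 1 after DNFB, with medians of 0.79 and 0.13, but of its 29 members only Top2a passed the test of the change. The call of Top2a also ended when all probe sets of a gene were averaged and with array weights. Alternative activation genes had 9 rises at steady state (median 1.23) against 4 rises and 1 fall after DNFB, and chemokine ligands 6 (median 1.08) against 2. Of these lists Ccl17 and Retnla were the members whose change passed. Tmem176b (-1.09, SE 0.17), Fn3krp (-2.32, SE 0.41), Gfra2 (-2.09, SE 0.40) and Flrt3 (-2.03, SE 0.39) also passed, as did Jup (-1.72) and Mpp6 (-1.35). Of the 11 fits that left out 1 array, the call ended in 7 for Gfra2 and Mpp6, 6 for Flrt3 and Jup, 2 for Fn3krp and 1 for Tmem176b, and in none for Ccl17, Itgax and Slc27a3. With only the compared arrays fitted, Slc27a3 alone passed. Fn3krp and Jup had opposite signs in the conditions (-1.37 and -0.32 after DNFB, 0.95 and 1.41 at steady state), and of these 4 differences those of Fn3krp after DNFB and Jup at steady state passed. The count of 11 was 67 without replicate 2 of steady-state P1, whose fibroblast list mean was 10.10 against 6.98 and 7.78 on the other 2, and 4 without replicate 1 of P1 after DNFB. With the keratinocyte and fibroblast covariates it was 66, 48 of them higher after DNFB and 10 shared with the 11.

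**Figure D5:**
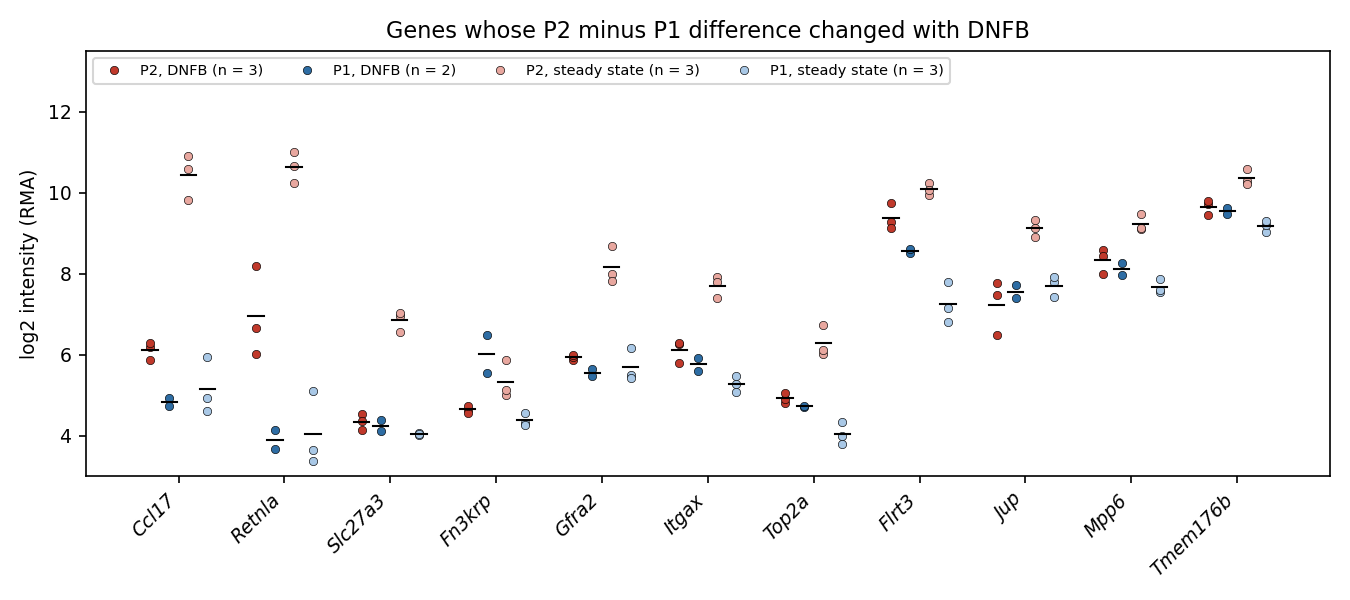
Log2 intensity of the 11 genes whose P2 minus P1 difference changed with DNFB, on each array of the 4 groups (dark red and dark blue after DNFB, light red and light blue at steady state), with bars at group means. Ccl17 is near 6 in P2 after DNFB and between 9.81 and 10.91 in P2 at steady state.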

How the data were processed

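RNA of sorted cells was hybridised to Affymetrix Gene 1.0 ST arrays. The deposited values are log2 intensities, made by the authors by RMA with affy, per the submitters' processing notes (versions and genome build are not given in the sources used here). They ran from 1.65 to 13.8, with array medians of 4.39 to 4.65. Of 34760 probe sets, 21640 carried 1 gene symbol, 1321 several and 11799 none. For each of 19937 genes the probe set with the highest mean over all arrays was kept (954 genes had several). A linear model with 13 groups was fitted to all 38 arrays with limma 3.58.1 under R 4.3.3, so that all groups share 1 estimate of the spread. Contrasts were P2 minus P1 after DNFB, the same at steady state, and the difference of both, with empirical Bayes moderated tests and Benjamini-Hochberg adjustment. Plots came from matplotlib 3.10.9 under Python 3.11.15.

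Genes are named in the text if they are sort markers, among the 15 largest rises or 15 largest falls, list members with the smallest adjusted p (up to 6 a list), list members that did not pass, or among the 8 largest interactions in a direction. Genes named beyond this rule were chosen after their values were seen: Jup, Mpp6, Tmem176b, Pgf and those of the closing observations, and the genes listed only because they passed on the 5 arrays alone. The members and the 42 lists (844 entries, 61 unmatched) were chosen with earlier results of these data known. Alternatives changed the threshold, the arrays fitted, normalization, the filter, probe sets, weights, covariates and a replicate block, and left out each array. In data simulated for the DNFB comparison over 19937 genes, 54 of 100 genes changed 2-fold and 94 of 100 changed 4-fold were found, with 6 unchanged genes called. The simulated noise was normal and independent, with an SD for each gene pooled over all 13 groups, as the model assumes. These counts therefore do not show how many genes are found or wrongly called where the spread differs between groups. The labels speak of independent pools of mice.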

Additional observations from a re-analysis of the deposited data

Results flagged for a closer look

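For 11 genes the P2 minus P1 difference itself differed between DNFB-treated and untreated skin by the interaction test of limma (adjusted p = 3.22e-05 to 0.0376). The changes, DNFB minus steady state, were -3.98 for Ccl17, -3.54 for Retnla, -2.70 for Slc27a3, -2.32 for Fn3krp and -2.09 for Gfra2. They were -2.07 for Itgax, -2.04 for Top2a, -2.03 for Flrt3, -1.72 for Jup, -1.35 for Mpp6 and -1.09 for Tmem176b. When each of the 11 arrays was left out in turn, the call ended in 7 fits for Retnla, Gfra2 and Mpp6, 6 for Flrt3 and Jup, 5 for Top2a, 2 for Fn3krp and 1 for Tmem176b, and in none for Ccl17, Itgax and Slc27a3. With only the compared arrays fitted by limma, Slc27a3 alone passed (adjusted p = 0.013), and Ccl17 (0.21) and Itgax (0.3) did not. The groups are too small for a check of single arrays against the rest of their group.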

How the results depend on the processing

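The count of 122 genes after DNFB was 62 at an adjusted p of 0.01, 22 with only the 5 arrays fitted, and 45 to 198 when 1 array was left out. Same-numbered P2 and P1 arrays carried the same number in their source names, and whether they were paired is not known. Deviations of same-numbered arrays correlated by 0.14 and 0.07 after DNFB and by 0.03, -0.03 and 0.20 at steady state. With 2 P1 arrays the P1 deviations mirror each other, so the values after DNFB cannot decide on pairing. The replicate block used the replicate number. This number stands for different source-name numbers after DNFB and at steady state, so the block on all arrays does not test pairing. With the replicate block, limma called 113 genes on all arrays and 0 on the 5 arrays alone, where 1527 had an unadjusted p under 0.05. In the block on the 5 arrays, replicate 3 of P2 had no P1 partner and did not enter the difference. Little was then left to estimate the spread from. The other settings, array weights (177) and the added list means (97) among them, gave 97 to 177. At steady state (416) the count was 195 at 0.01, 62 with only the 6 arrays, 32 with the block on them, and 286 to 489 without 1 array. For the change with DNFB (11) it was 4 at 0.01, 1 on the compared arrays alone, 0 with the block on them (795 at an unadjusted p under 0.05), 66 with the added list means, and 4 to 67 without 1 array. The share of rises there was 0% and became 72.7% with the added list means. The cause was not tested. No called difference of a named gene changed direction under any setting run, whereas 12 genes that did not pass after DNFB did. When 1 array was left out, the differences ran over these ranges: Cd24a -0.248 to 0.252, Ccr2 -0.151 to 0.011, Cd83 -0.082 to 0.306, Cd274 -0.034 to 0.07, S100a4 -0.042 to 0.054, S100a8 -0.938 to 2.51, Ly6g -0.535 to 0.17, Ngp -0.007 to 0.157, Ncr1 -0.046 to 0.059, Klrb1c -0.037 to 0.097, Zbtb46 -0.171 to 0.219 and Il4ra -0.038 to 0.217. The block on the 5 arrays gave -0.248 for Cd24a and -0.034 for Cd274. With centred medians, Cd24a was at -0.009, Cd274 at -0.018, Ncr1 at -0.017, Klrb1c at -0.007 and Zbtb46 at -0.001. The block on all arrays gave 0.026 for S100a4 and -0.017 for Klrb1c, quantile normalization 0.038 for S100a4 and -0.009 for Ncr1, array weights 0.002 for S100a4, and the added list means -0.117 for Cd83. The 2 P1 arrays limit every difference, and low signal limits the folds of Mgl2, P2ry10, Retnla, Hpgds and Lcn2.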

Other observations

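The genes in this section were chosen after their values were seen. Gsr, glutathione reductase, was at 8.41, 7.89 and 8.88 in P2 and at 10.24 and 10.23 in P1 (-1.84, SE 0.28, adjusted p = 0.00025 by limma), a call that held without any 1 of the 5 arrays. Pgd and Taldo1, enzymes of the pentose phosphate pathway, fell by 1.11 and 1.06, and Gstm1, a cytosolic glutathione transferase, by 1.68. The calls of these 3 ended without replicate 1 of P1 (adjusted p = 0.63, 0.13 and 0.24) and without other arrays. F5, factor V, was at 4.95, 4.35 and 4.92 in P2 and at 6.55 and 6.64 in P1 (-1.85, SE 0.19, adjusted p = 7.1e-07), a call that held without any 1 array. F10, factor X, was at 8.76, 7.26 and 8.83 in P2 and at 10.02 and 9.99 in P1 (-1.72, SE 0.38), and its call ended without replicate 1 or 2 of P1 (0.26 and 0.13) or replicate 2 of P2 (0.2).

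Pgf rose by 2.27 after DNFB, while Flt1, the gene of its receptor, was at 4.54, 3.99 and 4.74 in P2 and at 5.95 and 5.87 in P1 (-1.49, SE 0.34), a call that ended without replicate 1 or 2 of P1 (0.34 and 0.14) or replicate 2 of P2 (0.21). St6gal1, a sialyltransferase, was at 6.92, 7.26 and 6.88 in P2 and at 4.78 and 5.21 in P1, and Pltp, which transfers phospholipids, at 10.30, 10.06 and 9.86 in P2 and at 7.99 and 8.29 in P1. Both calls held without any 1 array.

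Levels of 3 genes over the monocyte groups are given as means with SD. Mgl2 was at 8.56 ± 0.39 in P2 and 3.74 ± 0.02 in P1 after DNFB, at 10.92 ± 0.38 in P2 and 4.73 ± 1.02 in P1 at steady state, and at 3.99 ± 0.30 in blood monocytes. Hp was at 8.87 ± 0.58 in P2 and 11.35 ± 0.07 in P1 after DNFB, at 7.56 ± 0.50 in P2 and 10.63 ± 0.15 in P1 at steady state, and at 11.21 ± 0.10 in blood monocytes. Treml4 was at 5.63 ± 0.43 in P2 and 7.73 ± 0.17 in P1 after DNFB, at 4.49 ± 0.64 in P2 and 8.60 ± 0.57 in P1 at steady state, and at 9.98 ± 0.32 in blood monocytes. In all 3 genes P1 after DNFB was closer to blood monocytes than P2 after DNFB was.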
